A study of Mus musculus with 24 samples.

Results

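The rows of the array named to high-numbered microRNA (miRNA) precursors were described in the prefrontal cortex of mice that lack 1 copy of a segment of chromosome 16. They were taken by name: rows with a single gene symbol, made of Mir and a number of 400 or more, leaving aside host transcripts, the rows of the chromosome 12 imprinted cluster and Mir484, Mir877, Mir1224 and Mir1306. This gave 71 rows for 68 genes, numbered from 421 to 717, of 306 precursor rows and 21218 rows with a single symbol in all. The mutant group (MUT) held 12 prefrontal cortex samples from male mice of genotype Df16(A)+/-, and the wild-type group (WT) 12 from male littermates; all mice were 8 weeks old and on a C57BL6/J background. The Df16(A) allele, made by chromosome engineering, deletes a stretch of chromosome 16 as a model of the human 22q11.2 microdeletion, and its carriers keep 1 copy of Dgcr8. Total RNA was taken with a kit that retains short RNA, labelled as whole-transcript cDNA and hybridised to an Affymetrix array, and each row holds 1 log2 expression value per sample.

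Most miRNAs are cut from long primary transcripts in the nucleus by Drosha and its RNA-binding partner Dgcr8, which together form the Microprocessor. The hairpin that is released is exported by Xpo5 and cut by Dicer1 into a short duplex, of which a strand is loaded into an Argonaute protein and guides it to messenger RNAs through a few bases near its 5′ end, the seed. Numbers were given to miRNAs roughly in the order of their discovery, so that this group holds mostly later-found ones, many of them known from few species; conservation was not measured here. A row of this kind of array detects any RNA that carries the hairpin sequence, so that it does not separate the primary transcript from the hairpin and does not measure the mature miRNA.

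Mature sequences from RefSeq (GRCm38.p6) are shown for the precursor that passed the test, for those closest to it by p-value, and for members that share a seed with another member or with low-numbered precursors; hairpins were listed for 56 of the 68 genes. The seed, bases 2 to 8, is in capitals. The sequence of miR-421-5p lies at chrX:103572966-103572986 on the minus strand. No 3p sequence was listed for Mir421, so that a seed from that arm is not shown. Seeds were compared among the listed sequences only, so that sharing with other precursors may be missed. The seed of miR-425-5p is shared by miR-489-3p, that of miR-449a-5p by miR-449c-5p and by the low-numbered Mir34a and Mir34b, and that of miR-708-5p by the low-numbered Mir28a. The miR-497a-5p seed is the one of the miR-15 and miR-16 family. The sequence of miR-680 is the same at its 3 loci, and that of miR-450a-5p is the same at Mir450-1 and Mir450-2. The seed of miR-450a-1-3p, from Mir450-1, is shared by miR-450b-3p, and that of miR-500-3p by miR-501-3p.
miR-421-5p: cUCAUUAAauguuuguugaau
miR-551b-3p: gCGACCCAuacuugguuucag
miR-708-5p: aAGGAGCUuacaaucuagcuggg
miR-425-5p: aAUGACACgaucacucccguuga
miR-489-3p: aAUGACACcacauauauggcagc
miR-449a-5p: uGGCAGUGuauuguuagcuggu
miR-449c-5p: aGGCAGUGcauugcuagcugg
miR-497a-5p: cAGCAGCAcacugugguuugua
miR-680: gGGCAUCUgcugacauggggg
miR-450a-5p: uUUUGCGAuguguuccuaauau
miR-450a-1-3p: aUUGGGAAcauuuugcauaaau
miR-450b-3p: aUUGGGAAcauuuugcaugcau
miR-500-3p: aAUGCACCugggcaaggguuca
miR-501-3p: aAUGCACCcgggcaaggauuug

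The 24 arrays were alike, with pairwise correlations between 0.994 and 0.997 across rows. Dgcr8, which the deletion removes, was at 8.26 ± 0.08 (SD, n = 12) in MUT and 8.79 ± 0.05 in WT, a log2 fold change of -0.54 ± 0.03 (SE; limma, adjusted p = 5.85e-13), with all 12 MUT below all 12 WT. The neuron markers listed for cortex had levels between 10.6 and 13.6. Of 39 measured markers of neurons, cortical layers, glia, vessels, blood and neighbouring regions, none passed the test. By that test 0.49% of all rows were higher and 0.203% lower. The 4 measured blood markers had a median log2 fold change of -0.56, and their mean lay between 5.69 and 6.68 in MUT and between 6.08 and 8.94 in WT, which overlap. Among precursors known from red blood cells, Mir451a, which is cut by Ago2 rather than Dicer1, had a log2 fold change of 0.05 ± 0.06 (SE), and Mir486 one of 0.06 ± 0.07.

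Of the 71 rows, 1 rose in MUT, none fell and 70 did not pass the test (limma, adjusted p under 0.05 over all rows with a single symbol). Across all rows, 0.49% were higher and 0.203% lower by the same test. At an unadjusted p under 0.05, 11 rows were higher and none was lower, a share of 15.5% higher, against 5.85% higher and 5.77% lower of all rows. That background is not matched for level, the mean of a row over the 24 arrays. Rows that are no precursor were 9.03% higher and 0.923% lower under a level of 5, and 9.69% and 1.61% between 5 and 6. They were 6.92% and 4.32% between 6 and 7, and 2.81% and 8.65% at 7 and above. In these bins 3.7%, 16.7%, 20% and 31.25% of the high-numbered rows were higher. In none of the 71 rows did all 12 MUT lie above all 12 WT, which held for 0.099% of all rows. The share of all rows tested that were higher was 0.452% with quantile normalization, 0.462% with median centring, 0.537% with a variance trend, 0.518% with array weights, 0.679% and 0.424% with filters at the 25th percentile and the median of level, 0.531% with 1 row per gene and 0.304% over all rows of the table. It was 0.533% with the replicate number and 0.471% with the array subset as a block, 0.156% over arrays 1 to 12, 0.141% over arrays 13 to 24, 0.448% without 3 outlying MUT arrays and 0.792% in a robust fit; the members' counts ran from 0 to 3 in these fits.

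The precursor that rose was Mir421, a gene of the X chromosome. Its values in MUT ran from 8.25 to 8.67 with a median of 8.31, against 7.83 to 8.33 with a median of 7.99 in WT. All 12 MUT lay above the WT median, 6 of them lay above every WT, and 11 of the 12 WT lay below every MUT, so that the groups overlapped through 1 WT sample. The means were 8.37 ± 0.14 (SD, n = 12) in MUT and 8.01 ± 0.14 in WT, so that MUT stood 1.28-fold higher, with a log2 fold change of 0.36 ± 0.05 (SE; limma, adjusted p = 0.000313). By the running array number in the labels, arrays 1 to 12 gave a difference of 0.45 ± 0.08 (limma, adjusted p = 0.0307). Arrays 13 to 24, which share no sample with these, gave 0.28 ± 0.07 and did not pass by themselves (limma, adjusted p = 0.209). Since Mir421 was picked by its p-value over all 24 arrays, the subsets are no independent check of it.

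The hairpin of Mir421, shown with the stretch listed as mature in capitals because it is the sequence that the row is named to, lies at chrX:103572921-103572996 on the minus strand, within Ftx on the same strand. Ftx is a long noncoding RNA of the X-inactivation centre, and no single-symbol row was named to it.
Mir421 hairpin: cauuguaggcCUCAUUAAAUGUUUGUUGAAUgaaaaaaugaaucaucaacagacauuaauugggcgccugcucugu
Mir374b, a low-numbered precursor within 10 kb, averaged 5.48 ± 0.09 (SD, n = 12) in MUT and 5.28 ± 0.15 in WT, a log2 fold change of 0.20 ± 0.05 (SE) that did not pass (limma, adjusted p = 0.058).

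Next by p-value was Mir551b, which lies within Egfem1. It ran from 5.60 to 6.54 with a median of 6.10 in MUT, against a range of 5.37 to 5.97 with a median of 5.71 in WT. The groups overlapped, with 8 MUT above every WT and 1 MUT below the WT median. The log2 fold change was 0.36 ± 0.09 (SE), as large as that of Mir421 but with a wider spread (limma, adjusted p = 0.0521). It passed in 7 of the 13 alternatives in which it was tested, with adjusted p-values from 0.00842 to 0.478, so that its side of the threshold depended on the processing. Egfem1 had a log2 fold change of 0.03 ± 0.07.

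Mir708 lies within Tenm4, a gene for a transmembrane protein of neuronal connections, and in mice both are known to rise under endoplasmic reticulum stress. It ran from 7.17 to 8.12 with a median of 7.62 in MUT, against 6.53 to 7.64 with a median of 7.19 in WT. Its log2 fold change of 0.45 ± 0.12 (SE) was the largest of the 71 and did not pass (limma, adjusted p = 0.0806). The spread was wide in both groups, with SDs of 0.27 in MUT and 0.34 in WT, and 5 MUT lay above every WT. Tenm4 had a log2 fold change of 0.05 ± 0.03. Mir708 had 0.60 ± 0.14 over arrays 1 to 12, with 0.23 ± 0.16 over arrays 13 to 24, and it passed in 1 of 13 alternatives, the fit with a variance trend (limma, adjusted p = 0.0362).

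Mir425, which lies within Dalrd3 and less than 10 kb from Mir191, ran from 6.81 to 7.43 with a median of 7.29 in MUT, against 6.90 to 7.18 with a median of 7.06 in WT. Of the MUT, 10 lay above every WT and 1 lay below all of them. The log2 fold change was 0.20 ± 0.05 (SE; limma, adjusted p = 0.0988). Its neighbour Mir191, a low-numbered precursor, rose by 0.26 ± 0.06 (limma, adjusted p = 0.0324), at 6.80 ± 0.18 (SD, n = 12) in MUT and 6.54 ± 0.12 in WT. Mir425 passed in 2 of 13 alternatives, with adjusted p-values from limma between 0.00264 and 0.658 over them. It passed in the robust fit (limma, adjusted p = 0.0122) and without the MUT arrays of replicates 5, 9 and 10, which lie far out on the first principal component (log2 fold change 0.24, limma, adjusted p = 0.00264); the low MUT value of 6.81 is that of replicate 10.

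**Figure D1:**
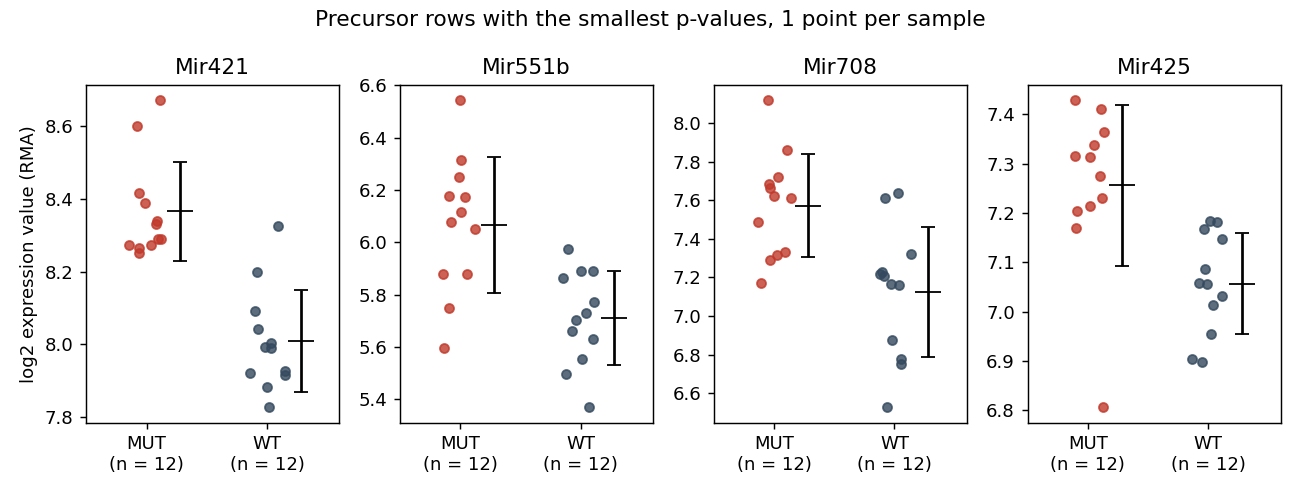
Log2 expression values of Mir421, Mir551b, Mir708 and Mir425, with 1 point for each sample, MUT on the left and WT on the right of each panel; the bar beside the points is the mean with its SD (n = 12 each). Mir421 passed the test, and in Mir425 1 MUT sample, at 6.81, lies below every WT.

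Further members just outside the threshold differed by less. Mir681, within the kinase gene Cdkl1, had a log2 fold change of 0.16 ± 0.05 (SE), Mir674 one of 0.16 ± 0.06, and Mir598, within Xkr6, one of 0.24 ± 0.09 (limma, adjusted p = 0.206, 0.28 and 0.284). Mir598 had all 12 MUT above the WT median, but its WT values ran up to 9.02, above 10 of the 12 MUT. At the other end, the lowest values were those of Mir503 (-0.09 ± 0.09), Mir499 (-0.06 ± 0.08), Mir680-3 (-0.04 ± 0.05) and Mir707 (-0.03 ± 0.08), with adjusted p-values between 0.728 and 0.931. Mir499 lies within Myh7b and is known from heart and slow muscle. Each of these values was about as large as its standard error or smaller.

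The differences of the 71 rows were small and mostly above 0. They lay between -0.09 and 0.45 with a median of 0.06, 58 of them were above 0 (81.7%), and 49 were within 0.1 of 0 (69%). In all rows with a single symbol the median was -0.002, 48.7% were above 0 and 85.9% were within 0.1 of 0. The mean over the 71 rows lay between 5.53 and 5.64 with a median of 5.58 in MUT, against 5.39 to 5.61 with a median of 5.51 in WT, so that the groups overlapped. The standard errors had a median of 0.07 for these rows and 0.05 for all rows, which are brighter. Under a level of 5 the median was 0.0635, against 0.0687 for rows that are no precursor. Between 5 and 6 it was 0.0641 against 0.0668, so that these rows were not wider there. It was 0.0734 against 0.0578 between 6 and 7, and 0.0673 against 0.0346 at 7 and above.

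The change was set against level, the mean of a row over the 24 arrays. A level includes how strongly a row's own probes bind, so the order of rows by level is not their order in RNA. Across the 71 rows, change and level had a Pearson r of 0.23 and a Spearman rho of 0.15, given as a description because the rows share the same arrays; without Mir421 r was 0.18. The relation turned between separate samples: r was 0.45 over arrays 1 to 12, whereas over arrays 13 to 24 it was -0.28, so that no relation of change to level held across the samples. Level taken from one set of arrays and change from the other gave the same turn. That could hardly come out otherwise, since the arrays were so alike that a row's level was nearly the same in both sets.

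By level, 27 rows lay under 5, 18 between 5 and 6, 10 between 6 and 7 and 16 at 7 and above. Their median log2 fold changes were 0.06, 0.06, 0.10 and 0.05 in that order, with 22, 15, 8 and 13 rows above 0. The 3 upper bins hold fewer than 20 rows each. Rows that are no precursor leaned the same way where they were dim: the median was 0.04 under 5 and 0.04 between 5 and 6, with 68.6% and 68.5% of rows above 0, and it was 0.01 between 6 and 7 and -0.02 at 7 and above, with 53.9% and 35.8% above 0. At 7 and above the members still lay mostly above 0, at 81.2%. In that bin, the high-numbered rows with values over 0.2 were Mir421, Mir708 and Mir598.

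**Figure D2:**
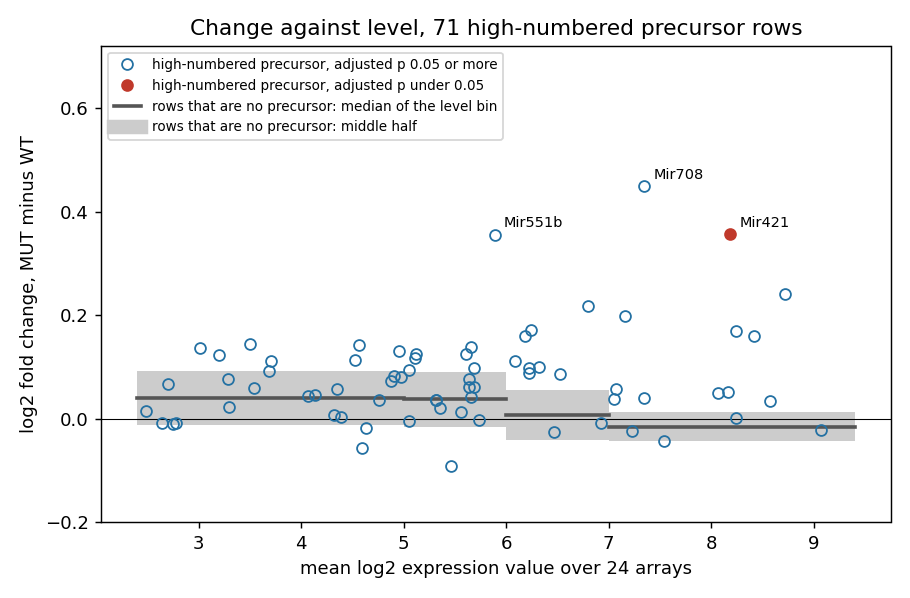
Log2 fold change (MUT minus WT) against the mean log2 value over 24 arrays for the 71 high-numbered precursor rows (circles, filled where the adjusted p was under 0.05). Grey bands give the middle 50% and dark lines the median of the rows that are no precursor in each level bin; these medians fall to -0.02 at a level of 7 and above, while Mir421 stands at 0.36.

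The 4 rows with the highest level were Mir703, Mir598, Mir692-1 and Mir674, and the 4 with the lowest were Mir450-1, Mir463, Mir450b and Mir450-2, all of the X chromosome. Mir703 averaged 9.06 ± 0.20 (SD, n = 12) in MUT and 9.08 ± 0.12 in WT. The 4 lowest had levels between 2.48 and 2.74 and values for the genotype difference between -0.01 and 0.07. The lowest value anywhere in the table was 1.82.

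Level went with the composition of the hairpin. Over the 56 genes with a listed hairpin, level and the share of G and C had a Pearson r of 0.44 and a Spearman rho of 0.49, while change and that share had an r of -0.04. The median share was 42.1% in the 21 genes with a level under 5, and 52.3%, 54% and 49.4% in the bins above. Hairpins at the low end of G and C are shown with the mature stretches in capitals, Mir450b at chrX:53047997-53048078 on the minus strand and Mir703 at chr5:98475556-98475664 on the minus strand.
Mir450b hairpin: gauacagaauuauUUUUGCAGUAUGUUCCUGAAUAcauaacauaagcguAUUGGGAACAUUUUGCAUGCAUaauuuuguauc
Mir703 hairpin: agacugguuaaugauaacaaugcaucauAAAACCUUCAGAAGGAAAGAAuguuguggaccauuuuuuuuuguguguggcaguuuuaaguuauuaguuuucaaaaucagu
Both are poor in G and C, at 30.5% and 31.2%, yet their rows had levels of 2.70 and 9.07. The row named to Mir703 is numbered among rows of chromosome 17, whereas RefSeq places the gene on chromosome 5, so that the locus this row measures is uncertain.

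**Figure D3:**
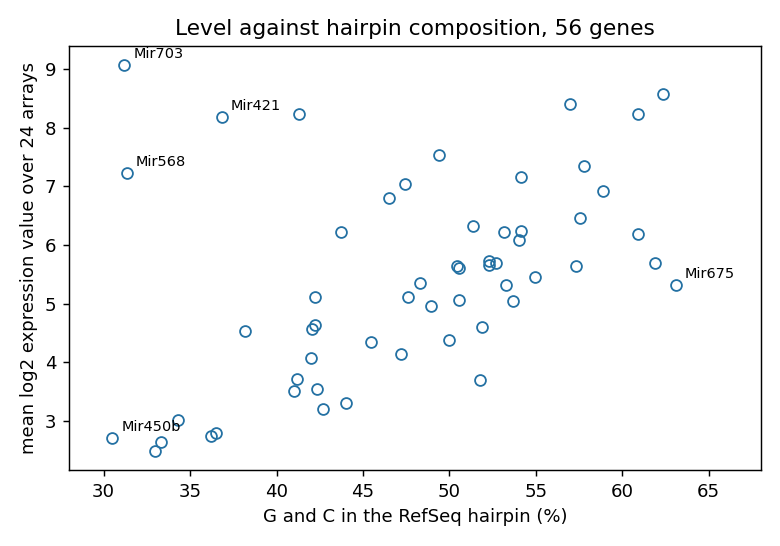
Mean log2 value over 24 arrays against the share of G and C in the RefSeq hairpin, 1 point for each of 56 genes. Hairpins poor in G and C mostly had low levels, with Mir703 (31.2%, level 9.07), Mir568 (31.3%, level 7.23) and Mir421 (36.8%, level 8.19) among those apart from them.

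The order of these rows by genotype difference was not shared between separate samples. Over arrays 1 to 12, with 7 MUT, and arrays 13 to 24, with 5 MUT, the log2 fold changes of the 71 rows had a Pearson r of -0.02 and a Spearman rho of -0.16, against 0.68 and 0.51 in the 198 low-numbered rows. The same rows lay above 0 on both sides in 38 of 71 cases and below 0 on both sides in 4, and the sign differed in 29. Mir703 had a value of 0.13 ± 0.07 (SE) over arrays 1 to 12 and -0.21 ± 0.07 over arrays 13 to 24. The 71 rows had a median of 0.06 over arrays 1 to 12, with 0.07 over arrays 13 to 24, so that the small shift above 0 was present on both sides while the order of the rows was not.

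**Figure D4:**
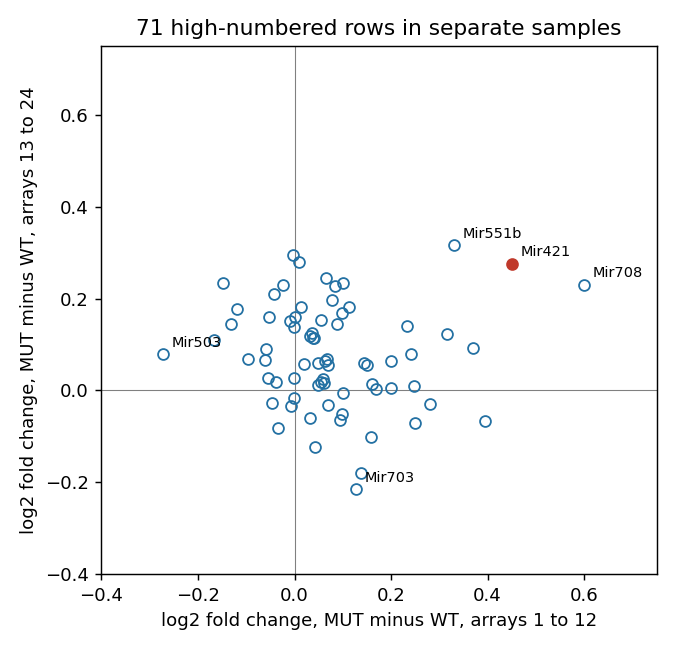
Log2 fold change (MUT minus WT) over arrays 13 to 24 against that over arrays 1 to 12 for the 71 rows; the filled point passed the test over all 24 arrays. Points scatter without a common slope (r = -0.02). Mir421, at 0.45 and 0.28, and Mir551b, at 0.33 and 0.32, lie high on both axes. Both were named for their small p-values over these same 24 arrays, so that their place here is no independent check.

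Set beside the other precursors, the 71 high-numbered rows outside the chromosome 12 interval were seldom called. The chromosome 12 rows also include precursors that are high-numbered by name. Some of these rose, such as Mir412 and Mir668, and others did not pass, such as Mir487b and Mir679. The contrast with that class therefore does not separate high numbers from low ones. Of 71 high-numbered rows 1 rose (1.41%), and of 198 low-numbered rows 41 rose (20.7%). Of 36 rows of the chromosome 12 interval 16 rose (44.4%), and none fell in any of these classes. Across all rows 0.49% rose, a share that includes these precursors. Of the 20912 rows that are no precursor 46 rose (0.22%) and 43 fell. The medians of the high-numbered, low-numbered and chromosome 12 rows were 0.06, 0.11 and 0.32. High-numbered and low-numbered rows had like levels, with medians of 5.56 and 5.51, and like standard errors, with medians of 0.07 each. At a level of 7 and above, 1 of 16 high-numbered and 14 of 27 low-numbered rows rose, with medians of 0.05 and 0.33. Between 6 and 7, none of 10 high-numbered and 18 of 42 low-numbered rows rose, with medians of 0.10 and 0.24. The difference between the classes was not tested, since rows of the same class share transcripts and arrays.

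**Figure D5:**
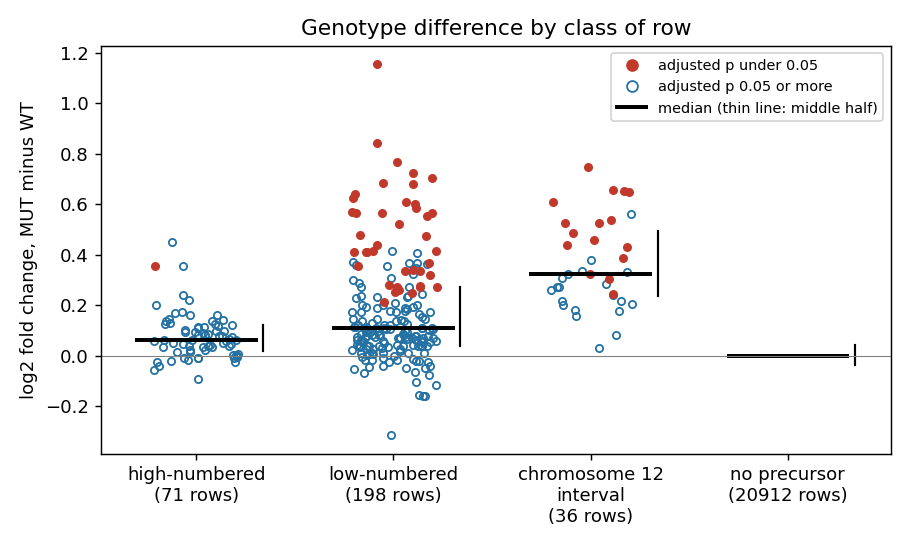
Log2 fold change (MUT minus WT) of every precursor row by class, with filled points where the adjusted p was under 0.05, thick lines at the medians and thin lines over the middle 50%; of the 20912 rows that are no precursor only the median and the middle 50% are drawn. The high-numbered rows lie between -0.09 and 0.45 around a median of 0.06, and the chromosome 12 rows around 0.32.

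Within the group, the members numbered under 600 had a median of 0.09 over 37 rows, with 78.4% above 0, and those numbered 600 or more had 0.05 over 34 rows, with 85.3% above 0. Rows over 0.2 numbered 4 and 1 in that order, and the difference was not tested. The X chromosome held 23 of the 71 rows, with a median of 0.05, against 0.08 for the 48 rows of other chromosomes.

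Members that lie close together on the chromosome, and so may share a transcript, had no member that passed the test. With 0.49% of all rows higher and 0.203% lower, this says little for groups so small. On the X chromosome Mir503, Mir542, Mir450-1, Mir450-2 and Mir450b lie in a cluster with the low-numbered Mir322 and Mir351; their values ran from -0.09 to 0.09, and Mir322 had 0.12 ± 0.07 (SE) and Mir351 -0.02 ± 0.07, none of which passed. The cluster of Mir471, Mir463, Mir470 and Mir465, a group known from testis, had levels between 2.64 and 3.20 and values from -0.01 to 0.14. Mir500, Mir501 and Mir532, within the chloride transporter gene Clcn5, had values from 0.04 to 0.13. Mir466, Mir669b and Mir669c, from the large miRNA block within Sfmbt2, had values from 0.01 to 0.08, and the low-numbered Mir297b beside them had -0.16 ± 0.07 (SE; limma, adjusted p = 0.391).

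Of the members that share a seed with another member, none passed the test. Across all rows only 0.49% were higher and 0.203% lower, so that this says little for so few rows. Seed groups were not tested as groups. Mir425 had 0.20, and Mir489, which shares its seed and lies within the calcitonin receptor gene Calcr, had 0.14 ± 0.08 (SE; limma, adjusted p = 0.514). Mir500 and Mir501 had 0.04 and 0.08, and Mir450-1, Mir450-2 and Mir450b 0.02, -0.01 and 0.07. Mir449a and Mir449c, which lie within Cdc20b and are known from ciliated cells, had -0.005 and 0.04. The 3 loci of miR-680, of which each has a row of its own, had values of 0.04, 0.001 and -0.04; since the mature sequence is the same at the 3 loci, their rows may share signal. Mir497, of the miR-15 and miR-16 family, had 0.10 ± 0.06, and its neighbour Mir195a 0.07 ± 0.07.

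Of the 68 genes, 50 overlap another gene in RefSeq, 45 of them a protein-coding one. A row was measured for 37 of the 46 overlapping genes. None of them passed the test, by which 0.49% of all rows were higher and 0.203% lower. At an unadjusted p under 0.05 there were 6 of the 37, where 5.85% of all rows with a single symbol were higher and 5.77% lower. The log2 fold changes of the 37 lay between -0.11 and 0.20 with a median of -0.01. The precursor's value lay above that of the overlapping gene in 33 of 42 precursors with such a gene measured. A gene that holds several precursors was counted with each of them. This count was not adjusted for level, and rows that are no precursor had a median of 0.04 under a level of 5 and -0.02 at 7 and above. Strands were the same in 26 of the 42, opposite in 2 and not listed for 14. The neuronal genes among them include Grm8, a glutamate receptor gene that holds Mir592, with 0.12 ± 0.05 (SE) beside 0.09 for Mir592. Htr2c, the serotonin receptor gene that holds Mir448, had -0.02 ± 0.06 beside 0.06, and Chrm2, the muscarinic receptor gene that holds Mir490, 0.04 ± 0.05 beside 0.12. Xpo5, the exporter of hairpins, holds Mir693; it had -0.06 ± 0.03, and Mir693 had 0.13 ± 0.06.

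Apart from Dgcr8, 30 genes that make or use miRNAs were measured. None of these passed the test, by which 0.49% of all rows were higher and 0.203% lower. The log2 fold changes of the 30 lay between -0.11 and 0.15 around a median of -0.01, and 7 had an unadjusted p under 0.05. At that p, 5.85% of all rows with a single symbol were higher and 5.77% lower. Among the 7 were Ran, which powers the export of hairpins (-0.08 ± 0.03), and Tsn, a subunit of a nuclease that removes the passenger strand (-0.08 ± 0.03). Adarb1 (-0.07 ± 0.03), Xpo5 (-0.06 ± 0.03) and Tsnax (-0.06 ± 0.03), also of the 7, lay below 0 as well. The rest of the 7, Lin28a (0.15 ± 0.06) and Tnrc6c (0.07 ± 0.03), lay above 0. Ago2, the Argonaute that can cut its target, had 0.05 ± 0.03. In this list Dgcr8 alone passed the test, and it fell.

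The identity of several rows is uncertain. Mir713 has 3 rows, with values of 0.09, 0.08 and 0.04, and Mir692-1 has 2, with values of 0.03 and 0.05. The second Mir692-1 row is numbered among rows of chromosome 15, while RefSeq places Mir692-1 on chromosome 17. A further 47 rows that name a high-numbered precursor together with other genes are not among the 71.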

How the data were processed

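Each probe set has 1 log2 value per array in the table the authors deposited, made with RMA per the submitters' processing notes. For the RMA version and the genome build, the sources used here give nothing. Values lay between 1.82 and 14.5. Rows were named through the platform annotation; 21218 of 35556 rows had 1 symbol and entered the fit, and 1881 had several and were left out. All 68 genes matched a RefSeq table (GRCm38.p6) by Entrez identifier, which gave chromosomes, overlapping genes and neighbours within 10 kb.

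MUT and WT were compared with limma 3.58.1 (R 4.3.3), through lmFit and eBayes with no term but genotype. Adjustment ran over the 21218 rows (Benjamini-Hochberg) with a threshold of 0.05, and each adjusted p printed comes from limma. Standard errors are moderated. The step was tested on simulated data. Correlations are descriptions. The table gives no detection call, and the number of arrays limits the precision. The labels do not say that each array is a separate animal beyond calling it a replicate, so p-values measure the spread between these arrays.

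The members, lists and alternatives were chosen with earlier results of these data known. The rule named the members past the threshold, the 4 with the highest and the 4 with the lowest level, the 4 with the lowest change, the 4 with the largest adjusted p above a level of 6 and the 6 just outside the threshold; others were named by position, host or seed. Alternatives covered 2 normalizations, the variance model, filters, the rows tested, blocks, array subsets and a robust fit.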

Additional observations from a re-analysis of the deposited data

Results flagged for a closer look

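The 47 rows that name a high-numbered precursor together with other genes enter no comparison above. Of these, 1 was higher in MUT and none was lower (limma over all 35556 rows, of which 0.304% were higher). It is the row named to Mir431, Rtl1 and 6430411K18Rik, of the chromosome 12 imprinted region, flagged as a signal in data outside the comparisons. It averaged 6.30 ± 0.12 (SD, n = 12) in MUT and 6.03 ± 0.12 in WT, a log2 fold change of 0.26 ± 0.05 (SE; limma, adjusted p = 0.00569). The median of the 47 rows was -0.03, and 6 had an unadjusted p under 0.05, all higher. Among rows with a single symbol, 5.85% were higher and 5.77% lower at that p. Groups of 12 samples were not examined for single outlying values.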

How the results depend on the processing

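Mir421 was higher in all 14 alternatives, with log2 fold changes from 0.28 to 0.45, and passed in 13; over arrays 13 to 24 its adjusted p was 0.209. The count of high-numbered rows that rose, 1 as reported, was 2 with median centring, array weights, a filter at the 25th percentile of level, 1 row per gene, the replicate block and the robust fit, 3 with a variance trend and without the 3 outlying MUT arrays, and 0 over arrays 13 to 24. None fell in any alternative. The added genes were Mir551b, Mir425 and Mir708. Whether the replicate numbers pair the samples is not settled by the data. Deviations of same-numbered samples had correlations from -0.08 to 0.30 with a median of 0.10, against a median of -0.01 for other pairs of a MUT and a WT sample. Of the same-numbered pairs 6 of 12 were over 0.1, and 4 of 24 arrays correlated best with their own number. With the replicate block Mir551b passed (limma, adjusted p = 0.00842). The relation of change to level moved most: r was -0.21 above the median level (9 rows), -0.28 over arrays 13 to 24 and -0.28 with level taken from arrays 1 to 12, and rho was -0.0479 with the 25th percentile filter, -0.18 above the median level, -0.23 over arrays 13 to 24 and -0.24 with level from arrays 1 to 12; rho was 0.45 over arrays 1 to 12 and 0.45 with level from arrays 13 to 24. The median of the 71 rows stayed between 0.05 and 0.08. The low-numbered count of 41 was 7 above the median level, which removes most of those rows, 17 over arrays 1 to 12 and 15 over arrays 13 to 24, and the chromosome 12 count of 16 was 4 and 7 there, with fewer samples. Uncalled members near 0 changed sign: over arrays 13 to 24 Mir503 had 0.0797, Mir692-1 -0.00535, Mir707 0.11, Mir463 0.0184, Mir450-2 0.0686 and Mir680-2 -0.18; over arrays 1 to 12 Mir450-1 had -0.0595 and Mir703 0.13; without the 3 outlying arrays Mir703 had 0.0272, Mir707 0.0217 and Mir483 0.0303; in the robust fit Mir463 had 0.00407 and Mir680-2 -0.0473; Mir680-2 also had -0.0038 with median centring, -0.0081 with array weights and -0.0215 with array subsets as a block. The cause of these shifts was not tested. Rows near the floor of the table limit what change can be seen.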
